A study of Mus musculus with 6 samples.

Results

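The genes described here encode the constitutive proteasome and its regulators. They were chosen by symbol, as every gene named Psma, Psmb, Psmc, Psmd or Psme followed by a digit, without the immunoproteasome subunits Psmb8, Psmb9 and Psmb10 and without symbols marked as pseudogenes. This rule took 42 of the 54532 genes listed, namely 8 alpha-ring and 8 beta-ring genes of the 20S core, 6 ATPases and 3 non-ATPase subunits of the 19S base, 8 subunits of the 19S lid, 3 chaperones of base assembly, 5 activator genes, and Psmc3ip, which is named after its binding to a base ATPase and is no subunit. RNA-seq libraries came from bone-marrow-derived macrophages (BMDMs) of wildtype C57BL/6 mice, which are macrophages grown in culture with medium conditioned by L929 cells, a source of macrophage growth factor. There were 3 groups of 2 libraries. BMDMs were untreated, were given lipopolysaccharide (LPS, 100 ng/ml) for 2 h, or were pretreated with metformin (5 mM) for 6 h and then given the same LPS stimulation (Met + LPS). The study examined how metformin alters the acute transcript response to LPS, and no library here received metformin without LPS.

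The proteasome degrades proteins that carry ubiquitin chains. Its 20S core is a barrel of stacked rings, with outer alpha rings that gate the entry and inner beta rings that hold the proteolytic sites, and the 19S particle, made of a base with an ATPase ring and of a lid with a deubiquitinase, recognizes, unfolds and feeds in the substrate. In macrophages and other cells exposed to inflammatory signals, the catalytic subunits Psmb5, Psmb6 and Psmb7 can be replaced by Psmb8, Psmb9 and Psmb10 in newly built particles, and the activator PA28, made of Psme1 and Psme2, can bind the core in place of the 19S particle, both of which are known to alter the peptides available for presentation.

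Transcript levels are given in TPM, a unit of abundance that corrects the reads of a gene for its length and sets the sum over genes equal in all libraries. Reads recovered from the TPM values and the exon lengths came to between 25457016 and 30762754 per library. Of the 42 genes, 40 had 1 TPM or more in 2 or more libraries, as did 12755 of all genes, and were tested with limma on log2(TPM + 1), where a gene passed at an adjusted p under 0.01 (Benjamini-Hochberg over the 12755 genes). The p-values measure the spread between libraries, and since the study states only that cells were seeded in duplicate, this spread may be technical. All 8 macrophage markers examined were above 10 TPM in every library. As deposited, their sum was 44621 and 46599 TPM in the untreated, 37412 and 37903 TPM in the LPS and 30877 and 30948 TPM in the Met + LPS libraries. The highest of the 8 reached 3.58e+04 TPM in a library, so that a single gene weighs heavily in this sum. Markers of T, B, NK, mast and erythroid cells, dendritic cells and fibroblasts stayed at or below 2.55 TPM for any gene, and the 6 neutrophil markers summed to 27.7 and 30.9 TPM in the untreated, 24.5 and 26.2 TPM in the LPS and 40.8 and 42.4 TPM in the Met + LPS libraries. The sums of macrophage and neutrophil markers thus moved with the groups as deposited, and the part of these differences in the results was not tested. Marker sums were not rescaled, so their direction against untreated cells may depend on the scale described below. In bulk RNA, fewer cells of a type and less RNA of a gene per cell cannot be told apart.

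The scale of the values bears on every comparison with untreated cells. Between the LPS and the untreated libraries, the median log2 fold change over all tested genes was -0.48 in TPM as deposited, and -0.01 after the libraries were rescaled by the median ratio over genes. For Met + LPS vs. untreated these medians were -0.48 and 0.00, and for Met + LPS vs. LPS they were -0.03 and -0.02. Apart from the marker sums, each comparison with untreated cells is therefore given on both scales, and the second is called rescaled below.

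Most subunits of the core and of the 19S particle were abundant transcripts in BMDMs. Leaving out Psma8 and Psmb11, which are known from testis and thymus, the rule took 31 genes of both particles. In untreated cells they lay between 37.1 TPM for Psmd11 and 411 TPM for Psmd8 (means of 2 libraries), with a median of 107 TPM. Within the core, the lowest gene was Psmb7 (49.1 TPM) and the highest Psmb6 (296 TPM). Between 783 reads (Psmb5) and 12683 reads (Psmd8) in a library stood behind these values. The order depends on the length by which the reads are divided: TPM here uses all annotated exons of a gene, and with the length of the principal transcript alone, Psma3 took the lowest place among the 31 genes and Psmd8 kept the highest. Products of these genes are built into particles in fixed numbers, but their transcripts differed 11.1-fold between the lowest and the highest gene in TPM.

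**Figure D1:**
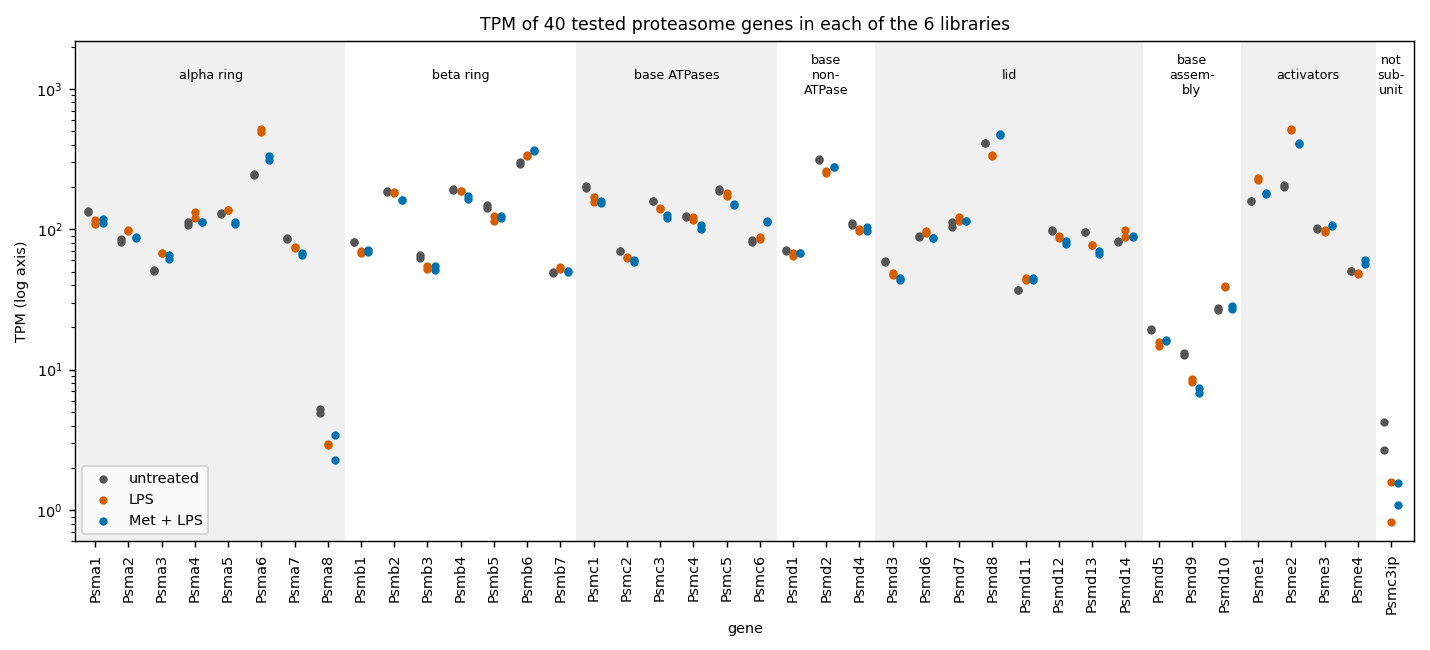
TPM of the 40 tested genes (log axis) in each of the 6 libraries, arranged by subunit group, with a point per library and colours for untreated, LPS and Met + LPS. Most core, base and lid genes lie between 37.1 and 411 TPM in untreated cells, while Psma8 and Psmc3ip lie below 10 TPM in every library, and the shifts of Psma6 and Psme2 stand out from the spread between the 2 libraries of a group.

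The genes at the low end were the specialized ones. Psmb11, the catalytic subunit of the thymoproteasome, was listed at 0 in 5 libraries and at 0.0276 TPM, a single read, in Met + LPS 1. Psme2b, a near copy of Psme2, was listed at 0 in every library. Of its 31-base words 21.6% are its own and 76.5% are also in Psme2. Reads from the shared stretches could not be told from those of Psme2. Neither gene was tested. Psma8, an alpha subunit of the spermatoproteasome, was at 5.21 and 4.95 TPM in untreated, 2.95 and 2.91 TPM in LPS and 3.44 and 2.27 TPM in Met + LPS cells, on 50 to 99 reads. For Psmc3ip, a meiotic recombination factor, the values were 2.68 and 4.22, 1.59 and 0.829, and 1.09 and 1.55 TPM in the same order, on 11 to 55 reads. Both were lower after LPS than in untreated cells as deposited (log2 fold changes of -0.63 and -1.01), and neither passed after rescaling (-0.21 and -0.65).

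After LPS, the transcripts of the proteasome spread in both directions as deposited, with the PA28 activator genes and the alpha subunit Psma6 at the upper end. Psme2 rose 2.52-fold, Psma6 2.04-fold, and Psmd10 and Psme1 1.44-fold and 1.43-fold, and these 4 genes also rose after rescaling. In all, 9 of the 40 tested genes were higher and 17 were lower after LPS, against 16.2% higher and 60.1% lower among all tested genes, and 14 did not pass. The median log2 fold change of the 40 genes was -0.07, compared with -0.48 for all genes, and 37 of the 40 lay above the median gene, with Psma8, Psmd9 and Psmc3ip below it. After rescaling, 36 of the 40 were higher and none was lower (30.6% and 27.6% of all tested genes), with a median of 0.44. No member reached the fold cut-off that the study applied to LPS, an absolute log2 fold change of 2, in limma at an adjusted p under 0.01 or at an unadjusted p under 0.05, and none did with voom on the recovered reads, while 6.08% of all tested genes did at the adjusted p. Of the 40 genes, 33 had an unadjusted p under 0.05, as did 10820 of the 12755 tested genes.

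The spread of the members was also narrow. The interquartile range of their log2 fold changes for LPS vs. untreated was 0.41, and that of all tested genes 0.85. Each fit that left out a library called fewer of the members than the fit of all libraries, and also fewer of all tested genes. Psma3, Psma6, Psmd2, Psmd3, Psmd8, Psmd9, Psmd10, Psmd13, Psme1 and Psme2 passed in every one of these fits. All 26 called genes kept their direction in them.

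Between Met + LPS and LPS cells, calls among the proteasome genes were about as frequent as among all genes. Compared with LPS, 3 of the 40 genes were higher in Met + LPS (Psmd8, Psmc6 and Psme4) and 9 were lower (Psma6, Psmd10, Psme1, Psme2, Psma5, Psmc5, Psmc4, Psmc3 and Psmb2), against 14.5% and 18% of all tested genes, and 28 did not pass. At an adjusted p under 0.05 the counts were 6 and 17, and 2794 and 3372 of the 12755 tested genes. The median log2 fold change was -0.08, compared with -0.03 for all genes, and the interquartile range was 0.20, compared with 0.46. No member reached the study's cut-off for this comparison, an absolute log2 fold change of 0.7, in limma at an adjusted p under 0.01 or at an unadjusted p under 0.05, whereas 8.28% of all genes did at the adjusted p. Rescaling gave 4 higher and 9 lower. Psma5, Psma6, Psmc6, Psmd8, Psmd10, Psme1 and Psme2 passed in every fit that left out a library, and Psmc3, Psmc4, Psmc5 and Psmb2 in none of them. Fewer of all tested genes passed in these fits too.

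Relative to untreated cells, Met + LPS gave 9 higher and 21 lower genes of 40 as deposited (16.3% and 58.8% of all tested genes), with a median of -0.19. After rescaling, 35 were higher and 1, Psmd9, was lower (33.4% and 29.7%), with a median of 0.35. As deposited, Psme2 (log2 fold change 1.0), Psmd9 (-0.79) and Psmc3ip (-0.92) were past the cut-off of 0.7, against 46.1% of all tested genes. After rescaling, Psme2 stayed past it (1.53), while Psmd9 (-0.30) and Psmc3ip (-0.55, not passing) did not. The untreated libraries serve as controls in 2 of the 3 comparisons and the LPS libraries enter 2 of them, so the comparisons are not independent of each other. In each fit that left out a library, fewer of the members passed, and so did fewer of all tested genes. All 30 members called here kept their direction in these fits.

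**Figure D2:**
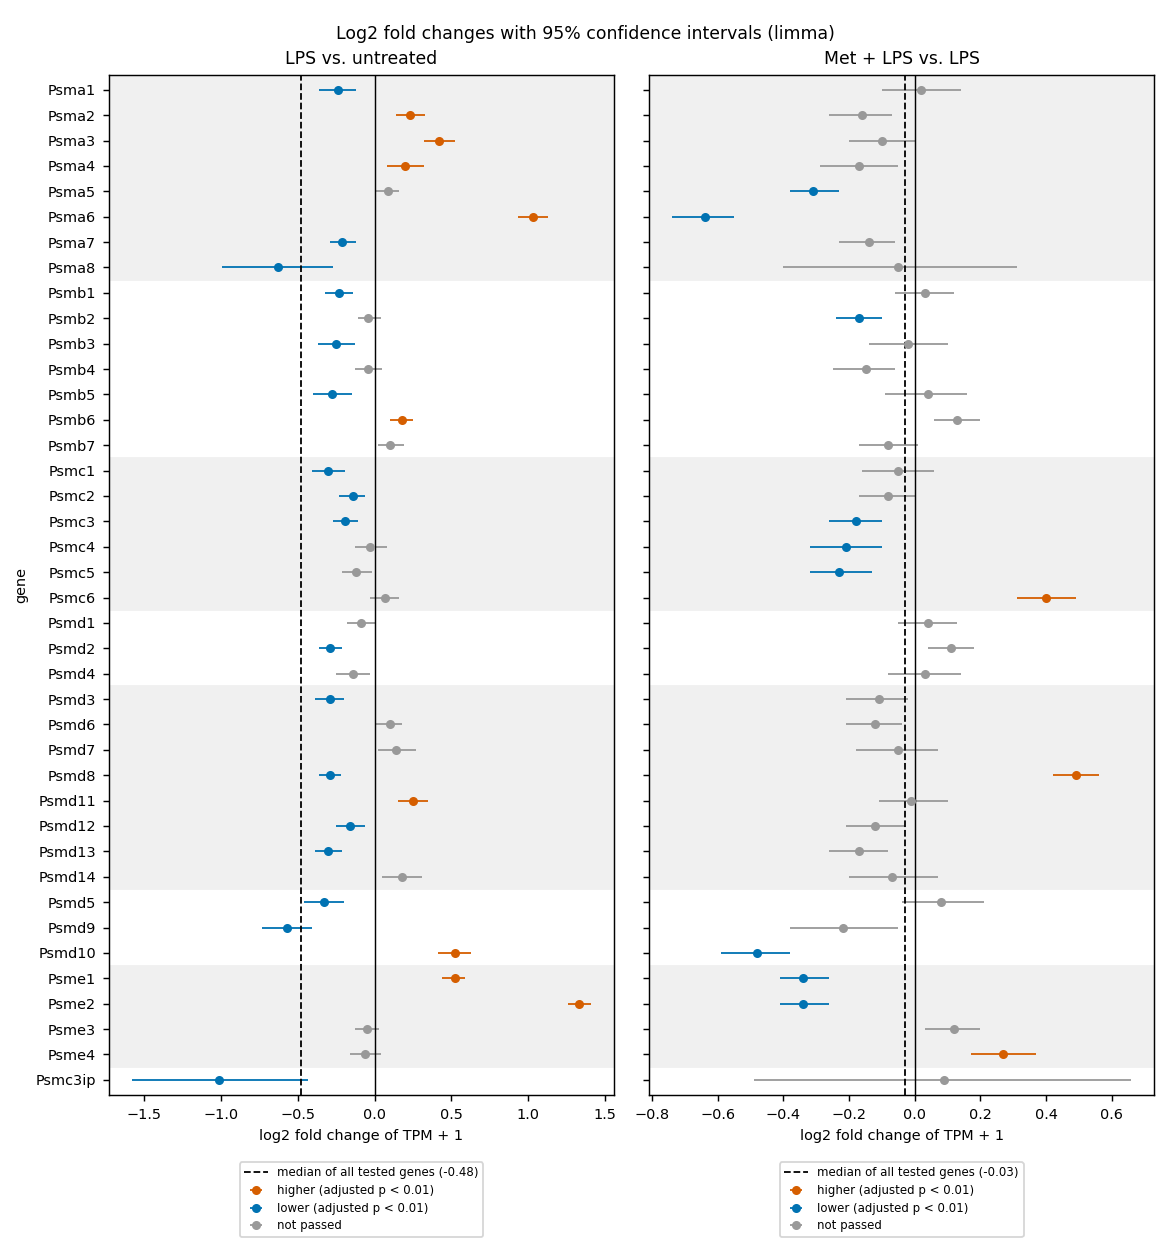
Log2 fold changes of TPM + 1 (x axis) with 95% confidence intervals from limma for the 40 tested genes (y axis), for LPS vs. untreated on the left and Met + LPS vs. LPS on the right, in TPM as deposited; the dashed line is the median of all tested genes. On the left, 37 of 40 genes lie to the right of the dashed line at -0.48, and after rescaling 36 pass as higher and none as lower; on the right, Psmd8, Psmc6 and Psme4 pass as higher and Psma6 and Psmd10 lie lowest.

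The regions around the start sites of the members were searched for short sequence motifs that known transcription factors bind. Promoter windows from RefSeq (GRCm38.p6, 250 bases before to 50 after a start site) were found for 35 of the 42 genes. The core of the antioxidant response element, TGACNNNGC, which NRF1 and NRF2 bind with small MAF proteins, was searched on both strands and found in the windows of 6 of the 35 genes (17.1%), which were Psmb5, Psmb6, Psmc6, Psmd9, Psmd12 and Psme4, and in those of 14% of all 27025 genes with windows. CCAAT, the site of NF-Y, was found for 14 of the 35 genes (40%) and for 41.1% of all genes. A core of the interferon-stimulated response element, GAAANNGAAA, was found for Psmb3, Psmd4, Psmd9 and Psme1 (11.4%, compared with 3.99% of all genes). After LPS as deposited, Psme1 was higher (log2 fold change 0.52), Psmb3 and Psmd9 were lower (-0.25 and -0.57) and Psmd4 did not pass (-0.14). After rescaling, Psme1, Psmb3 and Psmd4 were higher (1.04, 0.27 and 0.38) and Psmd9 did not pass (-0.09). TGATGNAA, a core of the C/EBP-ATF element, was found for Psmd13 (2.86%, compared with 4.51%). The letters of these motifs do not contain one another, and the last 2 motifs were added after the values were known. Windows are shown for Psmc6 and Psme4, which were higher in Met + LPS than in LPS, for the catalytic subunit Psmb6, and for Psme1 and Psma6, which rose after LPS and were lower with metformin. Capitals mark the matches, to the antioxidant response element core in the first 3 windows, to the interferon-stimulated response element core in that of Psme1 and to CCAAT in that of Psma6.
Psmc6, chr14:45329574-45329873, plus strand: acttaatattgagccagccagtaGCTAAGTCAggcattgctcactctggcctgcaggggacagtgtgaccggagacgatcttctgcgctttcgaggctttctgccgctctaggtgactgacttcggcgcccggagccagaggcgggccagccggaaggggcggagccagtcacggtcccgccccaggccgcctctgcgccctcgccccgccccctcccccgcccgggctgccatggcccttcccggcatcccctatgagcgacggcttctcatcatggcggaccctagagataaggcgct
Psme4, chr11:30771525-30771824, plus strand: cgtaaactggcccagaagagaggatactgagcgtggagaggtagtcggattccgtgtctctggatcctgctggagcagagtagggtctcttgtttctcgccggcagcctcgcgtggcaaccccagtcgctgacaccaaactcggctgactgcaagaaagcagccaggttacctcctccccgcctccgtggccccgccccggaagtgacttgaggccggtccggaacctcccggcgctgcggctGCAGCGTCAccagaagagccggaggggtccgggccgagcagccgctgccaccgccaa
Psmb6, chr11:70525107-70525406, plus strand: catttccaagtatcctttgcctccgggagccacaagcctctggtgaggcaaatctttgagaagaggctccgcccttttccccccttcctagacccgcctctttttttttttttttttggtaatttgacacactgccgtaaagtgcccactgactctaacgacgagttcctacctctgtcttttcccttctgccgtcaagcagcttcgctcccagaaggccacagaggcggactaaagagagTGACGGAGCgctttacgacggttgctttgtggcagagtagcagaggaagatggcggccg
Psme1, chr14:55578244-55578543, plus strand: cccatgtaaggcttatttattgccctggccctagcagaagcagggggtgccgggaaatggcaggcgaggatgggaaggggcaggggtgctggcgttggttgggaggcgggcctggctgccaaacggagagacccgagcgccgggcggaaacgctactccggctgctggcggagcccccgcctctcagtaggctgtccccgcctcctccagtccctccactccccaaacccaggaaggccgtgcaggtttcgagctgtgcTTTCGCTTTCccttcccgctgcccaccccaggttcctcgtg
Psma6, chr12:55383972-55384271, plus strand: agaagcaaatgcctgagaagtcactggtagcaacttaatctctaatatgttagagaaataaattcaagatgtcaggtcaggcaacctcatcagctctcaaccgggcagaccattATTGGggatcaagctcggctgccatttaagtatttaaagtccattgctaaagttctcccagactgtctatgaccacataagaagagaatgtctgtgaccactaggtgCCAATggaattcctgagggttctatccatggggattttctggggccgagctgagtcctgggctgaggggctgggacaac
The match began 227 bases before the start site in Psmc6, 7 bases before it in Psme4 and 9 bases before it in Psmb6, and 9 bases after it in Psme1. The 2 matches of Psma6 began 136 and 29 bases before its upstream start site, and a second RefSeq window of Psma6 held none of the 4 motifs. The windows of Psmd8 and Psme2, genes with some of the largest changes, held none of them either. A match of letters is no evidence of binding, and 14% of all genes carry the first of these motifs.

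Within the alpha ring, which gates the entry to the core, Psma6 stood apart from the other genes. Psma6 (ENSMUSG00000021024, GRCm38 chromosome 12, 55384222 to 55418454) was at 243 and 248 TPM in untreated cells, 513 and 491 TPM after LPS and 313 and 330 TPM in Met + LPS. Its groups did not overlap, and both Met + LPS libraries lay between the untreated and the LPS libraries. The log2 fold change was 1.03 ± 0.04 (SE) for LPS vs. untreated (adjusted p = 1.3e-06, limma), 1.56 rescaled, and -0.64 ± 0.04 for Met + LPS vs. LPS (adjusted p = 5.8e-05, limma). Compared with untreated cells, Met + LPS remained higher by 0.39 (0.93 rescaled).

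The other alpha genes moved less. Psma3, Psma2 and Psma4 rose after LPS with log2 fold changes of 0.42, 0.23 and 0.20, and also after rescaling (0.93, 0.75 and 0.72). Psma1 and Psma7 were lower as deposited (-0.24 and -0.21) and higher after rescaling (0.28 and 0.31). Psma5 did not pass as deposited (0.09, adjusted p = 0.036, limma) and was higher rescaled (0.61). With metformin, Psma5 was the only alpha gene beside Psma6 that passed. It was at 137 and 137 TPM in LPS and 112 and 110 TPM in Met + LPS libraries, and its log2 fold change was -0.31 ± 0.03 (adjusted p = 0.00042, limma). Only 39% of the 31-base words of Psma5 are its own, and the genes sharing most of the others were at 1.16 TPM or less. Psma2, Psma3, Psma4 and Psma7 had log2 fold changes between -0.17 and -0.10 and did not pass.

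In the beta ring, the 3 constitutive catalytic subunits changed by different amounts after LPS, in Psmb5 with a sign that depends on the scale. Psmb5, the chymotrypsin-like subunit, was at 141 and 149 TPM in untreated, 114 and 125 TPM in LPS and 121 and 124 TPM in Met + LPS cells. The caspase-like subunit Psmb6 was at 292 and 299, 333 and 335, and 369 and 363 TPM, and the trypsin-like subunit Psmb7 at 49.0 and 49.3, 53.5 and 52.2, and 50.1 and 49.7 TPM in the same order. As deposited, Psmb6 was thus lowest in untreated and highest in Met + LPS libraries, Psmb5 was highest in untreated libraries, and Psmb7 was highest in the LPS libraries.

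For LPS vs. untreated, the log2 fold change of Psmb5 was -0.28 ± 0.05 (adjusted p = 0.00221, limma) as deposited and 0.25 rescaled, so its direction depends on the scale. Psmb6 rose by 0.18 ± 0.03 (adjusted p = 0.00129, limma), or by 0.70 rescaled. Psmb7 did not pass as deposited (0.10, adjusted p = 0.0325, limma) and was higher rescaled (0.62). None of the 3 passed for Met + LPS vs. LPS, at 0.04, 0.13 and -0.08, although Psmb6 lay close to the threshold (adjusted p = 0.0117, limma) and passed after rescaling (0.14). In Met + LPS vs. untreated Psmb6 was higher by 0.31 ± 0.03 (0.85 rescaled). Of the structural beta genes, Psmb1 and Psmb3 were lower after LPS as deposited (-0.23 and -0.25, rescaled 0.29 and 0.27), Psmb2 and Psmb4 did not pass (-0.04 each, rescaled 0.49 and 0.48), and with metformin only Psmb2 was called (-0.17). Only 28.3% of the 31-base words of Psmb5 are its own. Its 2 closest copies were listed at 0, but how reads matching several genes were counted is not known, so its level may be understated.

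Ratios within a library do not depend on the scale. The ratio of Psmb5 to its immunoproteasome counterpart Psmb8 was 1.84 and 1.93 in untreated, 1.03 and 1 in LPS and 1.35 and 1.37 in Met + LPS libraries. That of Psmb6 to Psmb9 was 11.2 and 10.1, 5.74 and 4.96, and 8.23 and 7.30, and that of Psmb7 to Psmb10 was 0.385 and 0.398, 0.244 and 0.215, and 0.362 and 0.343. In all 3 pairs both LPS libraries were lowest, both untreated libraries highest and both Met + LPS libraries between them. The log2 ratios differed by -0.88, -0.96 and -0.77 between LPS and untreated libraries and by 0.42, 0.53 and 0.62 between Met + LPS and LPS libraries. A two-sided exact permutation test gave p = 0.333 for each, the smallest value that 2 libraries against 2 allow, so these differences cannot reach 0.05 in this test.

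The genes on either side of these ratios were also compared on their own. As deposited, the log2 fold changes after LPS were 0.61, 1.14 and 0.87 for Psmb8, Psmb9 and Psmb10, all 3 passing (1.13, 1.65 and 1.40 rescaled), beside -0.28, 0.18 and 0.10 for Psmb5, Psmb6 and Psmb7. For Met + LPS vs. LPS, Psmb8 and Psmb10 were lower (-0.38 and -0.70) and Psmb9 did not pass (-0.40, adjusted p = 0.0138, limma).

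**Figure D3:**
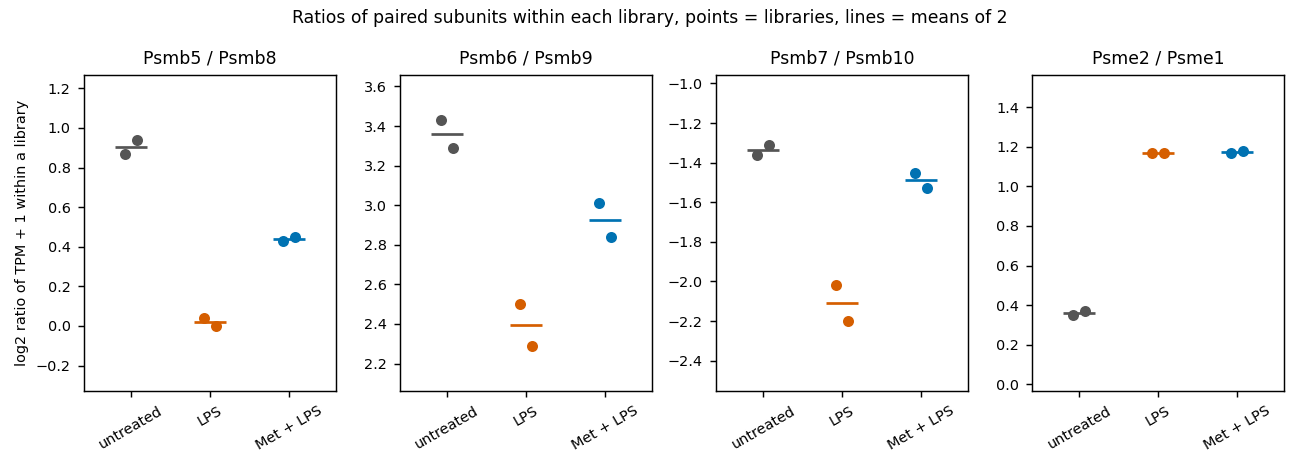
Log2 ratio of TPM + 1 within each library (y axis, each panel spanning the same range of 1.6) for 3 pairs of a constitutive and an immunoproteasome catalytic subunit and for Psme2 over Psme1, by group, with a point per library and a line at the mean of 2. In the first 3 panels LPS lies lowest and Met + LPS lies between LPS and untreated; in the last, LPS and Met + LPS lie at the same height, 1.17, above untreated at 0.36.

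Of the 6 ATPases of the 19S base, which unfold the substrate, 3 passed as lower after LPS as deposited (60.1% of all tested genes) and all 6 as higher after rescaling (30.6%). Only Psmc6 was higher in Met + LPS than in LPS (14.5% of all tested genes). Psmc6 (ENSMUSG00000021832, chromosome 14, 45329788 to 45349705) was at 83.7 and 80.9 TPM in untreated, 87.9 and 84.6 TPM in LPS and 115 and 113 TPM in Met + LPS cells. Both Met + LPS libraries lay above the other 4. The log2 fold change was 0.40 ± 0.04 for Met + LPS vs. LPS (adjusted p = 0.00034, limma) and 0.07 for LPS vs. untreated, which did not pass as deposited (0.59 rescaled, passing). In the same comparison with LPS, Psmc3, Psmc4 and Psmc5 were lower (-0.18, -0.21 and -0.23) and Psmc1 and Psmc2 did not pass (-0.05 and -0.08). After LPS, Psmc1, Psmc2 and Psmc3 were lower than in untreated cells as deposited (-0.30, -0.14 and -0.19) and higher rescaled (0.23, 0.38 and 0.33), while Psmc4 and Psmc5 did not pass as deposited (-0.03 and -0.12) and were higher rescaled (0.49 and 0.41). Psmc1, the most abundant of the 6 over all libraries, was at 204 and 196 TPM in untreated, 168 and 157 TPM in LPS and 155 and 160 TPM in Met + LPS libraries. Psmc2, the least abundant, was at 69.6 and 69.8, 63.6 and 62.5, and 58.8 and 60.2 TPM in the same order. In both genes the untreated libraries were highest as deposited.

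The rule took 3 non-ATPase subunits of the base, the scaffolds Psmd1 and Psmd2 and the ubiquitin receptor Psmd4. Their log2 fold changes after LPS were -0.09, -0.29 and -0.14 as deposited. Only that of Psmd2 passed, against 60.1% of all tested genes lower, and after rescaling all 3 were higher (0.43, 0.24 and 0.38), against 30.6%. None of these 3 passed for Met + LPS vs. LPS. Psmd2 was the most abundant of them, at 315 and 312 TPM in untreated, 261 and 253 TPM in LPS and 278 and 276 TPM in Met + LPS libraries, and Psmd1 the least, at 71.1 and 69.5, 67.3 and 64.8, and 67.6 and 68.1 TPM.

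Among the lid subunits, Psmd8 was both the most abundant and the one that changed most with metformin. Psmd8 (ENSMUSG00000030591, chromosome 7, 29174188 to 29180701), a subunit known to join the lid last in its assembly, was at 413 and 409 TPM in untreated, 339 and 334 TPM in LPS and 477 and 469 TPM in Met + LPS libraries. As deposited, the LPS libraries were lowest and the Met + LPS libraries highest, with no overlap, and after rescaling the untreated libraries were lowest. The log2 fold change was 0.49 ± 0.03 for Met + LPS vs. LPS (adjusted p = 5.1e-05, limma), -0.29 ± 0.03 for LPS vs. untreated as deposited (adjusted p = 9.6e-05, limma) and 0.24 for the latter after rescaling, and Met + LPS was higher than untreated by 0.20 (0.74 rescaled).

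None of the other 7 lid genes passed for Met + LPS vs. LPS, where 14.5% of all tested genes were higher and 18% lower. These lid genes were Psmd3, Psmd6, Psmd7, Psmd11, Psmd12, Psmd13 and the deubiquitinase Psmd14, with log2 fold changes between -0.17 (Psmd13, adjusted p = 0.0103, limma) and -0.01 (Psmd11). After LPS as deposited, Psmd11 was higher (0.25), Psmd3, Psmd12 and Psmd13 were lower (-0.29, -0.16 and -0.30), and Psmd6, Psmd7 and Psmd14 did not pass (0.10, 0.14 and 0.18). Among all tested genes, 16.2% were higher and 60.1% lower. After rescaling, all 8 lid genes were higher, between 0.22 and 0.76, against 30.6% of all tested genes. Psmd11, the least abundant lid gene, was at 37.1 and 37.1 TPM in untreated, 45.3 and 43.3 TPM in LPS and 43.3 and 44.9 TPM in Met + LPS libraries, with the untreated libraries lowest.

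The 3 assembly chaperones of the base, which share the Psmd symbol but are not part of the finished particle, went separate ways. Psmd10, also called gankyrin (ENSMUSG00000031429, chromosome X, 140948429 to 140956728), was at 26.4 and 27.6 TPM in untreated, 39.0 and 39.4 TPM in LPS and 27.2 and 28.2 TPM in Met + LPS libraries. As deposited, the LPS libraries alone stood high, and the untreated and the Met + LPS libraries overlapped. Its log2 fold change was 0.52 ± 0.04 for LPS vs. untreated (adjusted p = 4.5e-05, limma; 1.03 rescaled), -0.48 ± 0.04 for Met + LPS vs. LPS (adjusted p = 0.00027, limma) and 0.04 for Met + LPS vs. untreated (adjusted p = 0.467, limma; 0.56 and passing rescaled).

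Psmd9 fell instead as deposited. It was at 12.7 and 13.2 TPM in untreated, 8.19 and 8.55 TPM in LPS and 6.79 and 7.36 TPM in Met + LPS libraries, with no overlap between groups. The log2 fold change was -0.57 ± 0.07 for LPS vs. untreated (adjusted p = 0.0002, limma; -0.09 and not passing rescaled), and -0.22 for Met + LPS vs. LPS (adjusted p = 0.0359, limma), which did not pass. An antisense gene, Gm26745, overlaps 25.5% of the exon bases of Psmd9 and was listed at 0. Of the 31-base words of Psmd9, 73.4% are its own and 25% are also in Gm26745, and some are shared with Reps1 at up to 65.5 TPM and Cep128 at up to 5.87 TPM. Psmd5 was lower after LPS as deposited (-0.33) but did not pass rescaled (0.17) or with metformin (0.08).

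The activators divided into PA28, which inflammatory signals are known to induce, and the others. Psme2 (ENSMUSG00000079197, chromosome 14, 55587441 to 55591113) was at 201 and 206 TPM in untreated, 509 and 521 TPM in LPS and 409 and 406 TPM in Met + LPS libraries. Psme1 (ENSMUSG00000022216, chromosome 14, 55578123 to 55581529), its partner in the PA28 ring, was at 158 and 159, 225 and 230, and 181 and 179 TPM. For both genes every LPS library was above every Met + LPS library, and these were above the untreated ones. The log2 fold changes for LPS vs. untreated were 1.33 ± 0.03 for Psme2 (adjusted p = 1.4e-07, limma; 1.86 rescaled), the largest of the 40 on both scales, and 0.52 ± 0.03 for Psme1 (adjusted p = 8.6e-06, limma; 1.04 rescaled). For Met + LPS vs. LPS, both fell by 0.34 on the log2 scale (SE 0.03, adjusted p = 0.00027 and 0.00026, limma). The ratio of Psme2 to Psme1 within a library was 1.27 and 1.29 in untreated cells, 2.26 and 2.26 after LPS and 2.26 and 2.27 in Met + LPS (two-sided exact permutation p = 0.333 between untreated and LPS libraries and 1 between LPS and Met + LPS libraries). The genes sharing 31-base words with Psme2, of which 66.5% are its own, were listed at 0.

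Psme3, the nuclear activator PA28 gamma, was at 102 and 100 TPM in untreated, 96.3 and 99.3 TPM in LPS and 105 and 107 TPM in Met + LPS libraries. It passed in no comparison as deposited (-0.05, 0.12 and 0.07), and rescaled it was higher than in untreated cells after LPS (0.47) and in Met + LPS (0.60). Psme4 (ENSMUSG00000040850, chromosome 11, 30771726 to 30880361), which encodes PA200, an activator known from histone degradation, was at 50.7 and 50.3 TPM in untreated, 48.2 and 48.5 TPM in LPS and 60.4 and 56.7 TPM in Met + LPS libraries. Both Met + LPS libraries lay above the other 4, with a log2 fold change of 0.27 ± 0.04 for Met + LPS vs. LPS (adjusted p = 0.00256, limma), a call that held in 1 of the 6 fits that left out a library. For LPS vs. untreated it did not pass as deposited (-0.06), but was higher after rescaling (0.45).

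Summed over the genes taken by the rule, transcripts of the 20S core came to 1841 and 1870 TPM in untreated, 2135 and 2104 TPM in LPS and 1853 and 1888 TPM in Met + LPS libraries. Those of the 19S base and lid came to 2296 and 2295, 2105 and 2032, and 2144 and 2165 TPM, and those of the activators to 511 and 516, 878 and 899, and 755 and 748 TPM. From untreated to LPS, the core thus changed by 14.2%, the 19S particle by -9.87% and the activators by 73% as deposited, and by 64.5%, 29.8% and 149% after rescaling, so that the direction for the 19S particle depends on the scale. From LPS to Met + LPS, the changes were -11.7%, 4.13% and -15.4% as deposited and -10.9%, 5.15% and -14.6% rescaled. Single genes carried much of these changes, as sums chosen after seeing the data show. Without Psma6, the core was at 1610 TPM in untreated cells, 1617 TPM after LPS and 1549 TPM with metformin as deposited, changes of 0.405% from untreated to LPS (44.7% rescaled) and of -4.18% from LPS to Met + LPS (-3.24% rescaled). Without Psmd8, the 19S particle changed by -2.96% from LPS to Met + LPS (-2% rescaled), so that its direction in this comparison rests on that gene. Without Psme2, the activators changed by 20.5% from untreated to LPS (73.6% rescaled) and by -7.83% from LPS to Met + LPS (-6.93% rescaled). Within the core as deposited, the mean sum of the alpha ring was 842 TPM in untreated cells, 1121 TPM after LPS and 879 TPM with metformin, whereas that of the beta ring was 1014, 998 and 992 TPM. After rescaling, the alpha ring was at 653, 1252 and 992 and the beta ring at 786, 1115 and 1118 in the same order. These sums are descriptions and were not tested.

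**Figure D4:**
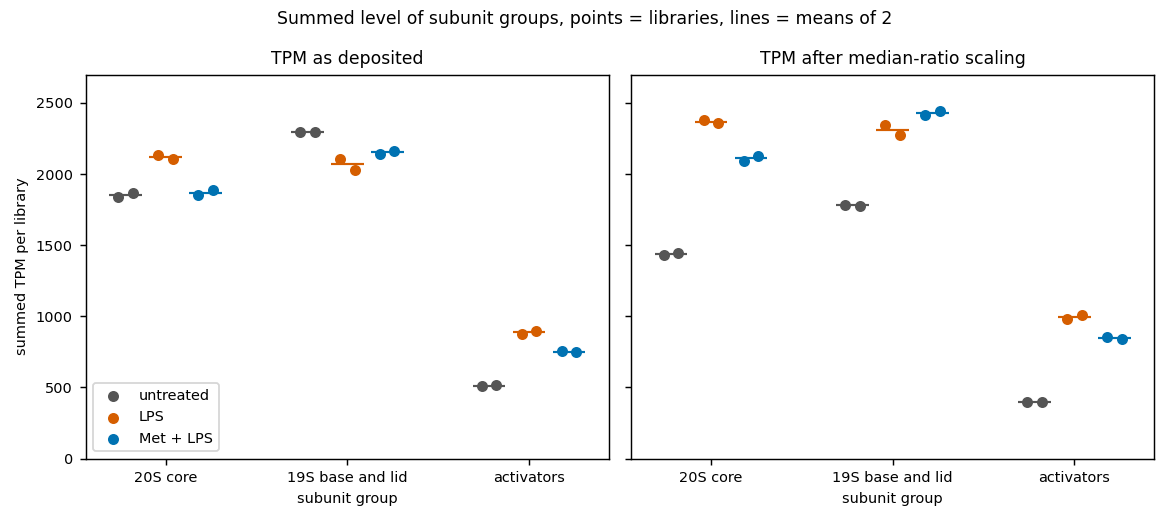
Summed TPM per library (y axis) of the 20S core, the 19S base and lid and the activators, as deposited on the left and after median-ratio scaling on the right, with a point per library and a line at the mean of 2. The 19S sum is highest in untreated cells as deposited (2295 TPM) but lowest in them after rescaling (1780), while the core and the activators are highest after LPS on both scales.

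Genes that build, regulate or feed the proteasome were examined beside it. Of 6 chaperones and inhibitors of the 20S core, 5 were lower after LPS as deposited and none was higher (60.1% and 16.2% of all tested genes), and after rescaling 1 was higher and none lower (30.6% and 27.6%). The largest changes as deposited were those of Psmg4 and Psmg1, with log2 fold changes of -0.60 and -0.57 (-0.08 and -0.06 rescaled, not passing), and the gene that passed after rescaling was Pomp (0.40, and -0.11 without passing as deposited). With metformin, the maturation factor Pomp and the inhibitor Psmf1 were lower than in LPS (-0.42 and -0.37) and the chaperone Psmg2 was higher (0.35).

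Among the 14 proteasome-associated proteins and ubiquitin shuttles listed, 2 were higher and 9 lower after LPS as deposited (16.2% and 60.1% of all tested genes) and 10 and 2 rescaled (30.6% and 27.6%). For Met + LPS vs. LPS, 6 were higher and none was lower (14.5% and 18% of all tested genes). Paaf1 was not analysed here. The list also holds Adrm1 and Sem1, 19S subunits whose symbols the rule does not take. They were at 35.8 and 105 TPM in untreated cells (means of 2 libraries). Zfand2a, an arsenite-inducible factor that binds the 19S particle, changed most, from 215 and 213 TPM in untreated cells to 29.2 and 28.4 TPM after LPS and 50.6 and 51.8 TPM in Met + LPS (log2 fold changes of -2.85 and 0.81, the first -2.33 rescaled). Txnl1, a thioredoxin-like protein of the 19S particle, rose after LPS by 0.87 (1.39 rescaled), and the proteasome activator Zfand5 was higher with metformin by 0.68.

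NRF1, encoded by Nfe2l1, is a transcription factor known to drive proteasome genes when the proteasome is impaired, after extraction by Vcp, deglycosylation by Ngly1 and cleavage by the protease Ddi2. Nfe2l1 was at 170 and 176 TPM in untreated, 181 and 179 TPM in LPS and 298 and 305 TPM in Met + LPS libraries, where both Met + LPS libraries lay above the other 4. Its log2 fold change was 0.74 ± 0.03 for Met + LPS vs. LPS (adjusted p = 2e-05, limma) and 0.06 for LPS vs. untreated, which did not pass as deposited (0.58 rescaled, passing). Ddi2 was at 57.1 and 58.4 TPM in untreated, 5.93 and 6.76 TPM in LPS and 11.9 and 10.5 TPM in Met + LPS libraries, with log2 fold changes of -3.0 and 0.73 for the same comparisons (the first -2.50 rescaled).

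Of the 5 genes of this list, which also holds Nfe2l2, 3 were higher in Met + LPS than in LPS (Nfe2l1, Ddi2 and Nfe2l2) and Vcp was lower (-0.32), against 14.5% and 18% of all tested genes. None was higher and 3 were lower after LPS as deposited (16.2% and 60.1% of all tested genes), and 2 were higher and 1 was lower after rescaling (30.6% and 27.6%). Of the 6 genes with the antioxidant response element core in their window, Psmc6 and Psme4 were higher in Met + LPS than in LPS, and Psmb5, Psmb6, Psmd9 and Psmd12 did not pass (0.04, 0.13, -0.22 and -0.12). Among the genes for ubiquitin and its activating enzymes, Ubb, which encodes a ubiquitin precursor, was lower after LPS (-0.80, rescaled -0.27), and the activating enzyme Uba6 rose by 0.80 (1.30 rescaled). With metformin, Ubb was higher than in LPS (0.35) and Uba6 was lower (-0.27).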

How the data were processed

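Per the labels and the study's methods, the authors enriched poly-A RNA, made Illumina TruSeq libraries, aligned single-end reads to GRCm38 (annotation release 94) with STAR 2.6.1d, counted reads with featureCounts (Subread 1.6.3, SAMtools 1.9 also listed) and deposited TPM values, without pooling; how counts became TPM and whether counting used strand are not given in the sources used here. TPM shows neither depth nor total RNA per cell. The study's count test was not used, since the deposited values are not counts.

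Groups came from the labels. The 12755 genes that had 1 TPM or more in 2 or more libraries were tested with limma 3.58.1 (R 4.3.3; trend over the mean, a common fit of the 6 libraries, 3 residual degrees of freedom) on log2(TPM + 1), with Benjamini-Hochberg adjustment. Fold changes on this scale understate those of low genes. The fit was tested on simulated data in which only a small part of the genes changed. That setting differs from the LPS comparison here, where most tested genes were called, and does not bear on the choice of scale. Members and lists were chosen with earlier results of these data known. Genes named with all values are the catalytic subunits, the activators, the highest and lowest of each group and the 3 largest changes each way in each comparison; others (Psma5, Nfe2l1, Ddi2 and Zfand2a among them) are given by list, and Psma5 was chosen after its values were seen.

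Exon lengths came from GENCODE for GRCm38 and matched 54495 of 54532 genes. TPM multiplied by length gave whole reads, within 0.02, for 96.9% to 97.2% of values under 1000 reads. The reads served for depth and for voom, an alternative chosen after seeing the data. Shared sequence was judged from 31-base words over all exons. The study's methods do not say how reads matching several genes were counted, so a copy listed at 0 does not show that no reads were shared. Alternatives tried were a minimum of 5 TPM, no filter, a pseudocount of 0.1, median-ratio and upper-quartile scaling, the compared groups only, the replicate number as a block, no trend, an adjusted p of 0.05, the principal-transcript length, leaving out each library and, chosen after seeing the data, leaving 1 gene out of each summed level. Tables and plots used Python 3.11.15, numpy 2.4.6, pandas 2.3.3, scipy 1.17.1 and matplotlib 3.10.9. Promoter windows came from RefSeq (GRCm38.p6). Counts over the genes for ubiquitin and its activating enzymes are not reported here.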

Additional observations from a re-analysis of the deposited data

How the results depend on the processing

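The comparisons with untreated cells depended on the scaling, and the cause was not tested. For LPS vs. untreated, 9 higher and 17 lower genes became 36 and 0 with median-ratio scaling (also with voom on that scale, added after seeing the data) and 19 and 1 with upper-quartile scaling. Among all 12755 tested genes, 3908 were higher and 3522 lower with the first scaling, and 2625 and 5880 with the second. For Met + LPS vs. untreated, 9 and 21 became 35 and 1 (the same counts with voom on that scale) and 18 and 5, against 4255 and 3789 and then 2745 and 5999 of all tested genes. The 3 genes past the fold cut-off became 9 (also 9 with voom on that scale) and 1, against 4209 and 4903 of all 12755 tested genes. Over the 40 tested genes, median-ratio scaling turned the sign of 22 for LPS vs. untreated, 13 of them called in opposite directions on the 2 scales, and of 21 for Met + LPS vs. untreated, 16 of them so called. The same scaling moved the median log2 fold change of all tested genes from -0.48 to -0.01 and from -0.48 to 0.00. Sign turns among all tested genes were not counted, so these counts do not set the members apart. The catalytic subunits, the activators and the 3 largest changes each way in each comparison made up 14 genes. Those among them that were called on either scale and turned included Psmb5 (0.25 after LPS and 0.30 in Met + LPS, each also with voom) and Psmd8 (0.24 after LPS, also with voom). Psme3 (0.47 after LPS, 0.18 with upper-quartile scaling, 0.48 with voom) and Psme4 (0.45, and 0.46 with voom) turned as well. Median-ratio scaling moved the summed change after LPS to 64.5% for the core, 29.8% for the 19S particle and 149% for the activators, and in Met + LPS vs. untreated from 0.804%, -6.16% and 46.3% to 46.7%, 36.5% and 113%. In sums chosen after seeing the data, leaving out Psma6 gave a core change of 0.405% (44.7% rescaled) after LPS, -4.18% (-3.24%) for Met + LPS vs. LPS and -3.79% (40%) for Met + LPS vs. untreated. Leaving out Psmd8 gave a 19S change of -2.96% (-2%) for Met + LPS vs. LPS and -10.8% (29.8%) for Met + LPS vs. untreated, and of 32.5% after LPS when rescaled. Leaving out Psme2 gave an activator change of 20.5% after LPS, -7.83% (-6.93%) for Met + LPS vs. LPS and 11.1% (61.6%) for Met + LPS vs. untreated. Of 556 values under all alternatives for 35 pairs of a gene and a comparison, over these 14 genes, 465 kept their call and direction, 69 lost the call, 13 gained it and 9 turned sign, each of the 9 under rescaling.

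Other settings moved counts of calls. At an adjusted p of 0.05, LPS gave 14 higher genes (2283 of all 12755 tested genes). Met + LPS vs. LPS gave 6 higher and 17 lower in place of 3 and 9 (2794 and 3372 of all tested genes). Without a trend, 9 genes were lower after LPS and 5 in Met + LPS vs. LPS, where fitting only the compared groups also gave 5, and voom after median-ratio scaling gave 5 higher. Leaving out each library in turn gave 5 to 10 higher and 7 to 16 lower genes for LPS, 5 lower genes each time for Met + LPS vs. LPS and 11 to 20 lower genes for Met + LPS vs. untreated, and a core sum between -0.14% (without Met + LPS replicate 2) and 1.75% for the last. In these fits the lone library of a group is assumed to vary like the others. Libraries with the same replicate number showed hardly any shared deviation from their group means (correlations of deviations -0.00365, 0.0284 and 0.00624). The labels do not say whether such libraries share a mouse or a culture, so a pairing cannot be judged from this. The replicate block gave 8 higher and 14 lower genes for LPS and 3 and 8 for Met + LPS vs. LPS. With 2 libraries a group, an exact permutation test cannot go below 0.333, so the calls rest on the spread that limma shares across genes.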
